A study of Homo sapiens with 17 samples.

Results

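The 10 genes described here are the 8 human SMAD genes, whose proteins carry signals from receptors at the cell surface into the nucleus, and BMP2 and BMP4, which encode bone morphogenetic proteins (BMPs), secreted ligands of the same pathway. They are 10 of the 20037 protein-coding genes of the RefSeq annotation used here (GRCh38.p14, the hg38 build). The genes were selected on peak calls of these data: by whether tagged H2A.Z was listed within 1 kb of an annotated gene end or inside the gene, and by how strongly. Presence and strength by cell state and isoform are therefore a description, and no test is attached to them.

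The study followed the histone variant H2A.Z in Caco-2/15 cells. This line derives from a human colon cancer and is used as a model of enterocyte differentiation, which its cells begin on their own when they become confluent. Its 2 isoforms, H2A.Z.1 and H2A.Z.2, differ by a few amino acids and are encoded by H2AFZ and H2AFV, and a Flag tag had been added to either gene by CRISPR-Cas9. Flag M2 antibody was used for chromatin immunoprecipitation and sequencing (ChIP-seq), and a deposited list gives the genomic intervals enriched in each of 8 samples. The 4 groups, each with 2 experiments (Exp1 and Exp2), were subconfluent cells with genotype heterozygous H2AFZ-Flag, the same cells 7 days after confluence, subconfluent cells with genotype heterozygous H2AFV-Flag, and those cells 7 days after confluence. Every cell line in these groups thus carried a tag, on some of its H2A.Z only, since the untagged allele remained. Clonality of the tagged lines, and separate culture of the 2 experiments, were points not given in the sources used here. In the files, the interval names of all 4 lists of Exp2 begin with the same prefix, whereas in Exp1 the H2A.Z.1 lists carry another prefix and the H2A.Z.2 lists a further one. The sample titles do not say what this prefix stands for. Isoform and prefix cannot be told apart in Exp1, while the cell states share a prefix within every isoform and experiment.

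The lists held 30603 to 79425 intervals, with median widths of 364 to 545 bp, and covered 18.5 to 46.9 Mb of the genome. Because a longer list reaches weaker intervals, each was reduced to its 30603 intervals of smallest p-value, the length of the shortest list (H2A.Z.2 subconfluent Exp2). These are called the equal lists, and the lists as deposited are called the whole lists. An interval's percentile is the rank of its fold enrichment within its own list, with the strongest interval near 100. The read depth behind an interval is unknown, and a gene without an interval may hold H2A.Z below the authors' threshold. In the equal lists 59.6% to 62.0% of the protein-coding genes had an interval within 1 kb of an end, and so did 6 to 9 of the 10 genes.

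BMP and TGF-β ligands bind pairs of type I and type II receptor kinases, which phosphorylate the receptor-activated SMADs. SMAD1, SMAD5 and SMAD9 serve mainly the BMP branch, SMAD2 and SMAD3 the TGF-β and activin branch, and all of them join the common mediator SMAD4 and enter the nucleus to regulate genes. SMAD6 and SMAD7 are inhibitors that the pathway itself induces, and in the gut BMP signals are strongest toward the differentiated end of the crypt-villus axis. H2A.Z replaces canonical H2A in some nucleosomes and is commonly found beside the starts of genes.

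Every interval found within 1 kb of an annotated end of the 9 genes with known strand lay at the end where the gene starts. RefSeq promoter records matched 9 of the 10 genes, with 22 starts among them, but none matched BMP2. The 250 bases before a RefSeq start of 4 genes are printed 5′ to 3′ on the gene's strand because the results turn on where the intervals lie relative to these starts. They are from RefSeq (GRCh38.p14), at chr15:66701986-66702235 (plus strand) for SMAD6, chr18:48950966-48951215 (minus strand) for SMAD7, chr13:36920239-36920488 (minus strand) for SMAD9 and chr14:53955051-53955300 (minus strand) for BMP4. Capitals mark GTCTAGAC, a palindrome bound by SMAD proteins, or GGCGCC, a GC-rich element bound by SMADs of the BMP branch.
SMAD6: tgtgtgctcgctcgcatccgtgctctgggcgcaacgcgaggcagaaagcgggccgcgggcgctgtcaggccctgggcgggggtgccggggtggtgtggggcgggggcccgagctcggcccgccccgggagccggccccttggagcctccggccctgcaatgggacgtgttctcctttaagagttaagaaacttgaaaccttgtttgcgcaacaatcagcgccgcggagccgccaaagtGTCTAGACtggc
SMAD7: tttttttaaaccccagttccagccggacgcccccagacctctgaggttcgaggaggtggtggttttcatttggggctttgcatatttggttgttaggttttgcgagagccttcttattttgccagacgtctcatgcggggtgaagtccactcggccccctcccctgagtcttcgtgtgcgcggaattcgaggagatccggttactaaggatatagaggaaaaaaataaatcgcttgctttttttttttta
SMAD9: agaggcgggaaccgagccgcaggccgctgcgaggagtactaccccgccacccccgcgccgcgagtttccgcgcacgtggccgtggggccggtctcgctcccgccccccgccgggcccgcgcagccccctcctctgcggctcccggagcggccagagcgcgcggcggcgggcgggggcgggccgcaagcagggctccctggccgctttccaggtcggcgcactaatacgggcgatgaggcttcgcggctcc
BMP4: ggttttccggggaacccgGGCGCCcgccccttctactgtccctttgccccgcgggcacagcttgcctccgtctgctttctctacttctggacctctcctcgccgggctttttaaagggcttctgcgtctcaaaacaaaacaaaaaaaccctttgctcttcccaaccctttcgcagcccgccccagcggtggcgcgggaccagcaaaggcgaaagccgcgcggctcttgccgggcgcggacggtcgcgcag
Both motifs read the same on either strand, and neither overlapped the other in these windows. GTCTAGAC was present in 71 of 35116 RefSeq promoters of 300 bases (250 before and 50 after the start; 0.202%), and among the 22 promoters of these genes only that of SMAD6 held it. GGCGCC was present in 6748 promoters (19.2%) and in 8 of the 22, which belonged to SMAD1, SMAD5, SMAD2, SMAD3, SMAD4 and BMP4. A match is a match of letters and not a measured binding site. The 22 promoters held 4 to 51 CpG dinucleotides, 15 of them more than the genome-wide median of 14 per 300 bases. The window before the SMAD9 start was the most GC-rich of the 4 printed (78.4% GC, 39 CpG), and the one before the SMAD7 start the least (48% GC, 13 CpG).

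An interval stood near an end in all 8 equal lists for 4 of the 10 genes (SMAD5, SMAD2, SMAD6 and BMP2), against 54.5% of all protein-coding genes. SMAD7 had none in any list, as did 33.1% of all genes. The other 5 genes had one in 4 to 7 lists. In the whole lists 6 of the 10 genes were present in all 8, SMAD1 and SMAD3 being added, against 57.9% of all genes. Near a RefSeq start, a measure chosen after the data had been seen, 5 of 9 genes were present in all 8 equal lists, against 57.8% of the 15843 genes with such a record.

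**Figure D1:**
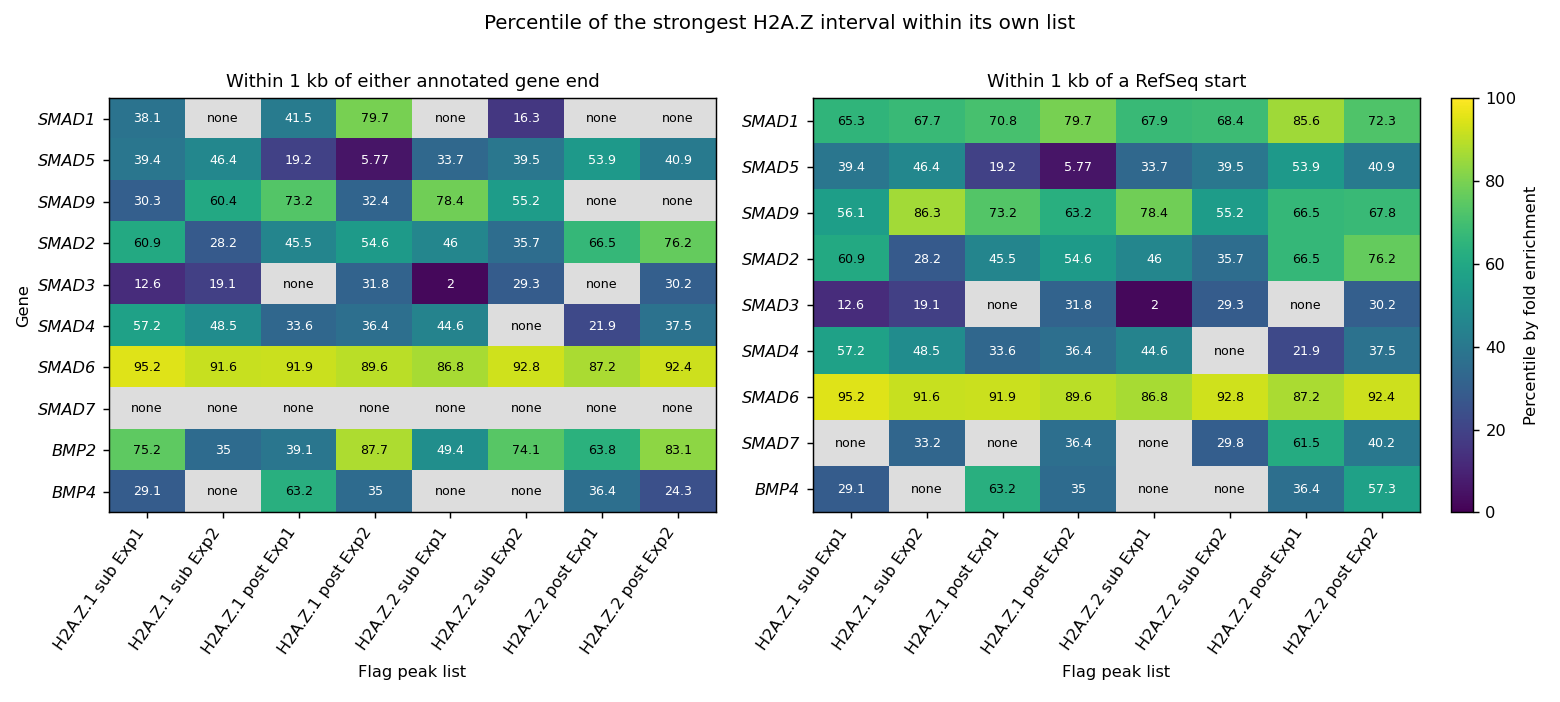
Percentile of the strongest interval of each gene (rows) in each of the 8 equal lists (columns; sub, subconfluent; post, postconfluent), by colour and printed value, within 1 kb of either annotated end (left, 10 genes) and within 1 kb of a RefSeq start (right, 9 genes); grey cells have no interval. SMAD6 stands between 86.8 and 95.2 in every list, SMAD7 is grey throughout on the left, and SMAD1 and SMAD9 fill all 8 columns on the right.

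Of the receptor SMADs of the BMP branch, SMAD1 (chr4:145480770-145559176, plus strand) carried H2A.Z in every list just inside the gene, over a cluster of 5 RefSeq starts that lie 536 to 2035 bp downstream of the annotated start. The stretch covered, chr4:145481216-145483021, held an interval in all 8 equal lists with folds of 7.41 to 12.7. Within 1 kb of a RefSeq start, H2A.Z.1 stood at percentiles 65.3 (Exp1) and 67.7 (Exp2) before confluence and at 70.8 and 79.7 after it; all pairs of values below keep this order of experiments. H2A.Z.2 stood there at 67.9 and 68.4 before and at 85.6 and 72.3 after confluence. Each postconfluent percentile was thus above each subconfluent one, a pattern that 2.83% of the 9150 genes with an interval at a RefSeq start in all 8 lists also had. In the whole lists the states overlapped, at 68.4 to 85.1 before and 83.5 to 92.2 after confluence. The 2 RefSeq starts farthest inside the gene lay under an interval in all 8 equal lists, and the first in 1.

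The annotated start gave another picture for SMAD1. Within 1 kb of it H2A.Z.1 was listed at 38.1 in subconfluent Exp1, 41.5 in postconfluent Exp1 and 79.7 in postconfluent Exp2, and H2A.Z.2 only at 16.3, in subconfluent Exp2. The 79.7 (92.2 in the whole list) is the rank of a single interval from 446 to 2251 bp inside the gene. Its summit, at 1880 bp, lay outside the window. In every other list a separate interval, wholly outside the window, covered this inner part, so these percentiles do not compare signal at the annotated start. By presence near an annotated end SMAD1 was therefore a gene with postconfluent H2A.Z.1 and no postconfluent H2A.Z.2, as were SMAD9 and 0.499% of all genes. The whole lists held an interval for SMAD1 there in all 8, at percentiles of 16.3 to 92.2, and of the 10 genes SMAD9 alone then had the pattern, with 1.41% of all genes.

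SMAD5 (chr5:136132845-136182733, plus strand), a close relative of SMAD1, had intervals of low rank over its start, within chr5:136132023-136133510. The lncRNA gene SMAD5-AS1 (chr5:136129513-136134890) spans this stretch, so its intervals cannot be assigned to SMAD5 alone. For H2A.Z.1 the percentiles were 39.4 and 46.4 in subconfluent cells and 19.2 and 5.77 in postconfluent cells. For H2A.Z.2 they were 33.7 and 39.5 before and 53.9 and 40.9 after confluence. The states did not overlap for either isoform, with H2A.Z.1 lower and H2A.Z.2 higher after confluence. Non-overlap of 2 lists against 2 was common: 17.8% of the 10919 genes present in all 8 lists were lower for H2A.Z.1 and 19.4% were higher for H2A.Z.2.

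The stretch covered at SMAD5 was longer in each postconfluent whole list. H2A.Z.1 covered 1004 and 1017 bp before and 1420 and 1405 bp after confluence, and H2A.Z.2 covered 1002 and 455 bp before and 1028 and 1363 bp after. Of 16576 genes with any covered base, 4.33% had more in every postconfluent list, whereas 0.35% had less. Per Mb of whole list, SMAD5 held 24.6 to 30.8 bp in subconfluent and 29.9 to 43.7 bp in postconfluent cells, and these ranges overlapped.

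SMAD9 (chr13:36844831-36920854, minus strand), which encodes the third receptor SMAD of this branch, had an interval near its annotated start for H2A.Z.2 in subconfluent cells only. The percentiles there were 78.4 and 55.2 in subconfluent cells, and neither postconfluent list of H2A.Z.2 had an interval, as for 0.429% of all genes. H2A.Z.1 was listed in both states, at 30.3 and 60.4 before and at 73.2 and 32.4 after confluence. The 78.4 and the 73.2 are ranks of intervals that reached beyond the window, with summits 1477 and 1513 bp from the annotated start. Postconfluent H2A.Z.2 had intervals outside the window with summits at 1473 and 1478 bp. The absence in postconfluent H2A.Z.2 held in the whole lists, where 0.225% of genes had this pattern.

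The intervals themselves show how narrow this difference was. The SMAD9 start in RefSeq lies 616 bp inside the annotated one, and downstream of it H2A.Z occupied chr13:36919076-36920112 in all 8 equal lists. In 6 lists the covered stretch began 742 to 870 bp from the annotated start, inside the 1 kb limit, and in the H2A.Z.2 postconfluent lists it began at 1200 bp, outside it. Measured from the RefSeq start, those 2 intervals began at 584 bp, and their percentiles were 66.5 and 67.8. SMAD9 was present near its RefSeq start in all 8 lists, at 56.1 and 86.3 (H2A.Z.1) and 78.4 and 55.2 (H2A.Z.2) before confluence and at 73.2 and 63.2 (H2A.Z.1) after it. The part nearest to the start was thus listed in 6 lists and the part farther in was listed in 8.

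**Figure D2:**
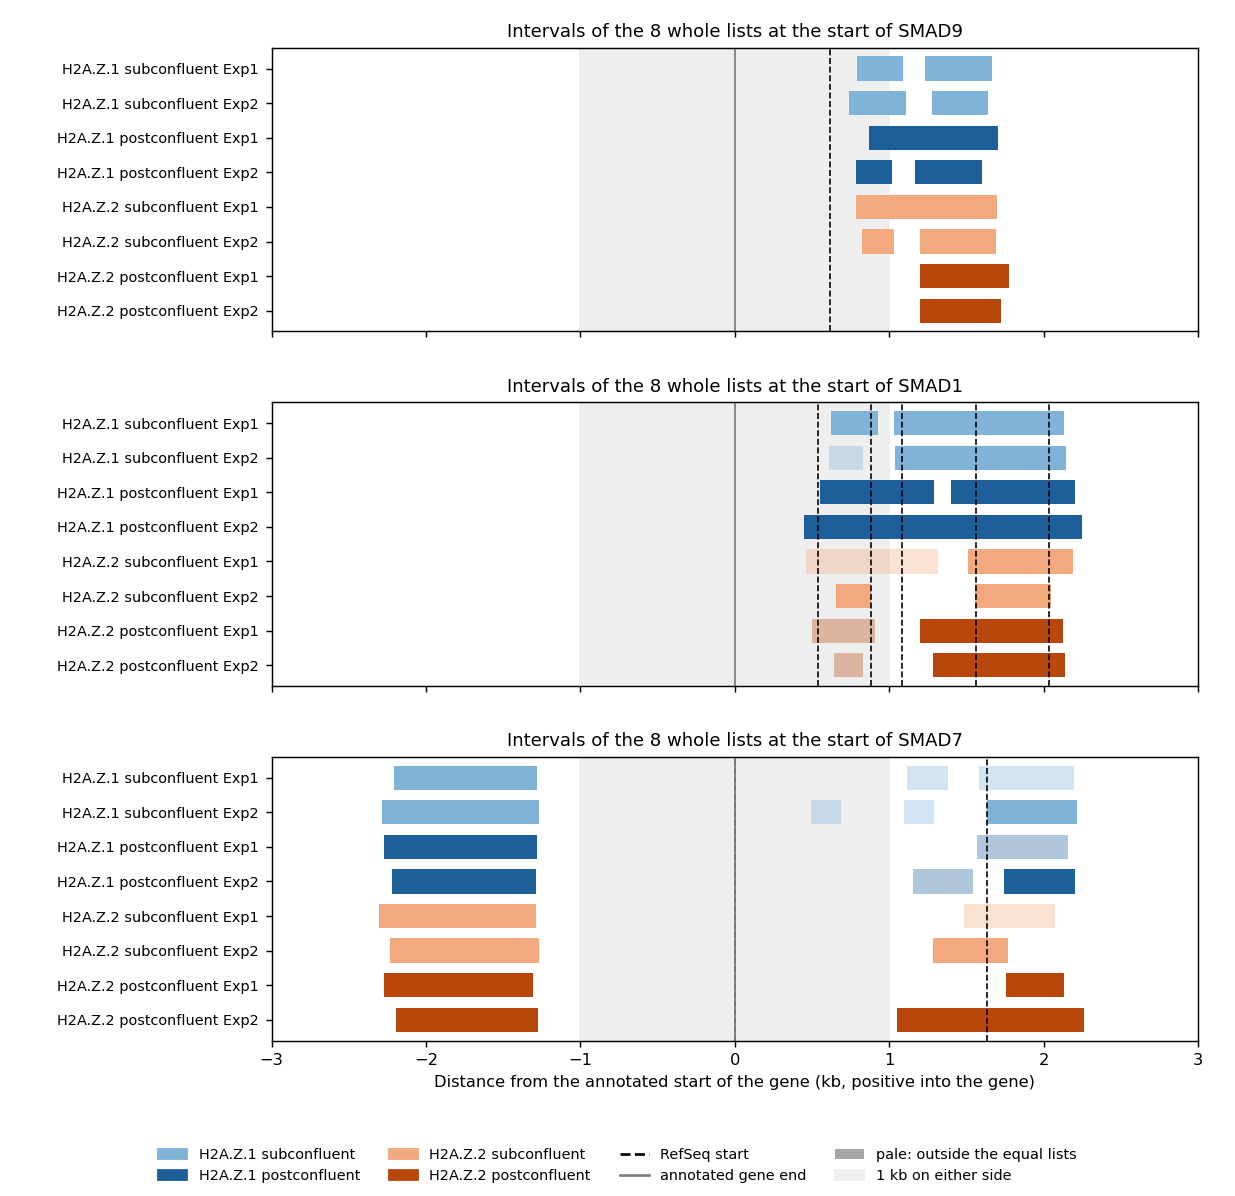
Intervals of the 8 whole lists (rows) within 3 kb of the annotated start of SMAD9, SMAD1 and SMAD7; the horizontal axis is the distance from the annotated start in kb, positive into the gene, grey shading is the 1 kb on either side, dashed lines are RefSeq starts, and pale bars are intervals that are not in the equal lists. At SMAD9 the bars of H2A.Z.2 postconfluent cells begin at 1200 bp, outside the shading, and at SMAD7 all 8 lists have a bar upstream that ends outside it.

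Of the receptor SMADs of the TGF-β branch, SMAD2 (chr18:47808957-47930872, minus strand) had an interval in all 8 lists just upstream of its starts, within chr18:47931258-47932064, whose nearer edge was 386 bp before the annotated start. The base at either of its RefSeq starts was covered in no list. The lncRNA gene LOC124904297 (chr18:47932188-47940760) has an end 1316 bp from this annotated start, so the stretch cannot be assigned to SMAD2 alone. H2A.Z.1 stood at 60.9 and 28.2 before and at 45.5 and 54.6 after confluence, and the experiments moved in opposite directions. H2A.Z.2 stood at 46.0 and 35.7 before and at 66.5 and 76.2 after confluence, higher after confluence without overlap, as for the 19.4% of genes given for SMAD5. A second stretch inside the gene, chr18:47929940-47930531, was listed in 2 equal lists, both H2A.Z.1 postconfluent, but in 4 whole lists, 1 subconfluent and 3 postconfluent.

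SMAD3 (chr15:67065602-67195169, plus strand) had the lowest median rank among the genes with any end interval (24.2 over the 6 lists that had one). Its H2A.Z.1 percentiles were 12.6 and 19.1 in subconfluent cells and 31.8 in postconfluent Exp2, with none in postconfluent Exp1. Those of H2A.Z.2 were 2.00 and 29.3 in subconfluent cells and 30.2 in postconfluent Exp2, again with none in postconfluent Exp1. The whole lists held an interval there in all 8, at percentiles of 21.8 to 73.7, so the gaps were intervals too weak for the equal lists. The intervals flanked the start on both sides, and the start base was covered in no list. The lncRNA gene SMAD3-DT has an end 1420 bp from this start, so the upstream intervals cannot be assigned to SMAD3 alone. The other 4 RefSeq starts of SMAD3, 33077 to 100929 bp inside the gene, had no interval within 1 kb in any equal list.

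SMAD4 (chr18:51030213-51085042, plus strand), the partner that the receptor SMADs share, had 1 stretch across its start, chr18:51029362-51030445. H2A.Z.1 stood at 57.2 and 48.5 in subconfluent cells and at 33.6 and 36.4 in postconfluent cells. H2A.Z.2 stood at 44.6 in subconfluent Exp1 and at 21.9 and 37.5 in postconfluent cells, and subconfluent Exp2, the shortest list, had no interval within 5 kb of the gene. Its states overlapped in the whole lists. The lncRNA gene LOC107985152 ends 119 bp from this start, so the stretch cannot be assigned to SMAD4 alone.

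The strongest intervals near the SMAD genes stood at the start of SMAD6 and, beyond the 1 kb limit, upstream of SMAD7. SMAD6 (chr15:66702236-66782849, plus strand) had an interval in all 8 lists within chr15:66701200-66703385, with folds of 8.74 to 15.3. Its H2A.Z.1 percentiles were 95.2 and 91.6 before and 91.9 and 89.6 after confluence. Its H2A.Z.2 percentiles were 86.8 and 92.8 before and 87.2 and 92.4 after confluence. The mean over the 8 lists was 90.9 ± 2.88 (SD, n = 8), and 85.1% of the 10919 genes present in all 8 lists had a lower mean. In the whole lists every H2A.Z.2 percentile of SMAD6 was below every H2A.Z.1 one, as for 5.21% of genes, while in the equal lists the isoforms overlapped.

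H2A.Z also stood upstream of SMAD6 and inside it. A separate stretch at chr15:66700457-66701069, whose nearer edge was 1167 bp before the start, was listed in all 8 equal lists at percentiles of 56.9 to 95.4. Inside the gene, stretches at chr15:66772805-66774748 and chr15:66779156-66781124, over 70 kb from the start, were listed in all 8 at percentiles of 22.2 to 64.7 and 33.8 to 62.8. A further stretch at chr15:66715289-66715848 was listed in 7. SMAD6 was the only one of the 10 genes with an interval in its body, away from the ends, in all 8 equal lists, as had 12.7% of all genes. SMAD1 had one in 7 equal lists, and in the whole lists SMAD9 and SMAD7 also had one in all 8. SMAD6 held 3 to 7 such intervals per equal list. Just downstream of the start, chr15:66703515-66704544 was listed in none of the 4 subconfluent and 3 of the 4 postconfluent equal lists, and in 2 and 4 of the whole lists. How common this is among stretches of other genes is not given here.

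**Figure D3:**
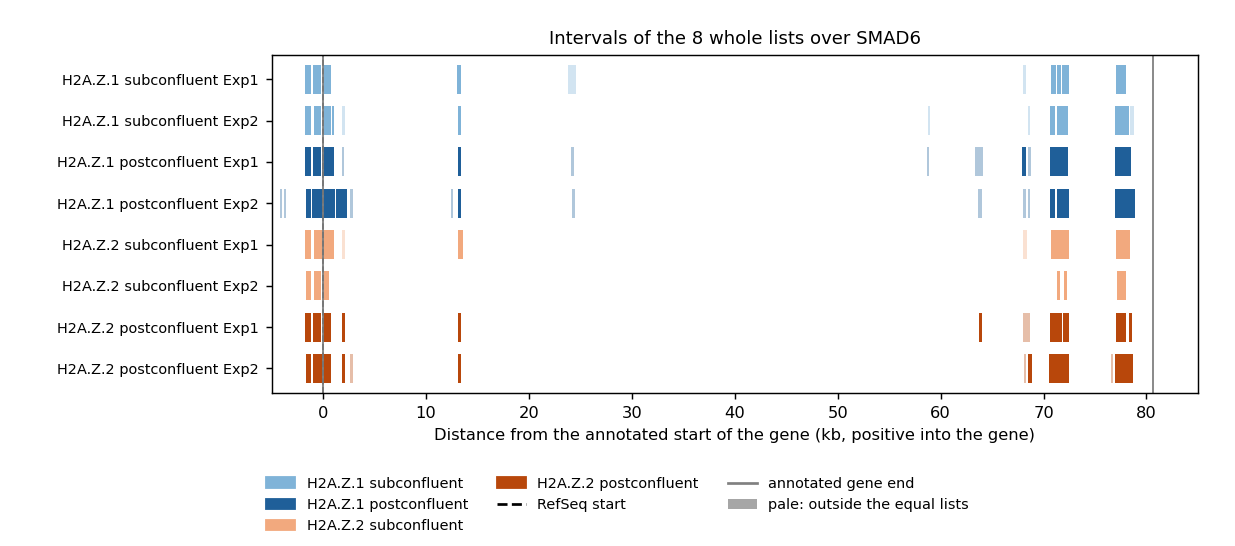
Intervals of the 8 whole lists (rows) over SMAD6; the horizontal axis is the distance from the annotated start in kb, positive into the gene, grey lines are the annotated ends, and pale bars are intervals that are not in the equal lists. Bars stand around the start and in a pair of clusters toward the far end of the gene in all 8 lists.

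SMAD7 (chr18:48919853-48950965, minus strand), the inhibitor that also recruits ubiquitin ligases to TGF-β receptors, had no interval within 1 kb of an annotated end in any equal list, and one in 1 whole list, at percentile 57.9. Just beyond this limit stood one of the strongest intervals near any of the 10 genes, chr18:48952232-48953267, whose nearer edge was 1267 bp upstream of the start. Its fold was 9.38 to 15.4 over the 8 lists. H2A.Z.1 stood there at 94.7 and 87.7 before and at 95.7 and 90.9 after confluence. H2A.Z.2 stood there at 98.2 and 92.2 before and at 90.9 and 96.2 after confluence. The states overlapped for both isoforms. A weaker stretch, chr18:48948701-48949913, lay around the second RefSeq start (1632 bp inside the gene) in all 8 whole lists and in 5 equal lists, at 29.8 to 61.5.

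Of the ligand genes, BMP2 (chr20:6767686-6780246), whose protein induces bone and acts in many epithelia, had an interval in all 8 lists within chr20:6767708-6769354, at its lower-coordinate end. H2A.Z.1 stood at 75.2 and 35.0 before and at 39.1 and 87.7 after confluence, so that Exp1 fell by 36.1 points and Exp2 was 52.7 points higher after confluence. H2A.Z.2 stood at 49.4 and 74.1 before and at 63.8 and 83.1 after confluence. The states overlapped for both isoforms. The lncRNA gene LOC105372517 ends 202 bp from this end of BMP2.

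BMP4 (chr14:53949736-53956891, minus strand), whose product is a mesenchymal and epithelial BMP of the gut, was the gene with the broadest difference between states. In postconfluent cells the intervals formed a long, nearly continuous stretch over the start side of this short gene. The whole lists of H2A.Z.1 covered 1715 and 773 bp of the gene and the 1 kb around it in subconfluent cells and 3536 and 3581 bp in postconfluent cells. Those of H2A.Z.2 covered 875 and 0 bp before and 3232 and 3549 bp after confluence. Every postconfluent list lay above every subconfluent one, in each experiment and for each isoform, as for the 4.33% of 16576 genes given for SMAD5.

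The widest interval at BMP4 was 804 and 296 bp (H2A.Z.1) and 330 and 0 bp (H2A.Z.2) in subconfluent cells. In postconfluent cells it was 3536 and 3581 bp for H2A.Z.1, wider than 99.9% of the intervals of each of those lists, and 1757 and 1669 bp for H2A.Z.2. Median interval widths of the whole lists overlapped between the states, at 364 to 520.5 bp before and 390 to 545 bp after confluence. In the equal lists those of H2A.Z.1 did not, at 746 and 664 bp before and 816 and 873 bp after confluence. Those of H2A.Z.2 did, at 780 and 474 bp before and 666 and 670 bp after. Per Mb of whole list, BMP4 held 0 to 52.5 bp in subconfluent and 76.3 to 117 bp in postconfluent cells, again without overlap. The share of all genes separated per Mb is not given here. In the equal lists 0 to 373 bp were covered before and 3232 to 3581 bp after confluence. Of 15077 genes with any covered base in the equal lists, 5.16% had more in every postconfluent list and 0.763% had less. Of the 10 genes, SMAD5 and BMP4 had more and none had less.

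The covered stretch, chr14:53953673-53957300, reached over RefSeq starts only after confluence. The bases at chr14:53955050, the start whose upstream sequence is printed above, and at chr14:53954488 lay under an interval in none of the 4 subconfluent and all 4 postconfluent whole lists. The innermost RefSeq start, at chr14:53953395, lay under none. The share of all RefSeq starts covered only after confluence is not given here. In its rank by fold enrichment BMP4 was unremarkable, with H2A.Z.1 at 29.1 and not listed in subconfluent cells and at 63.2 and 35.0 in postconfluent cells. H2A.Z.2 was not listed near an end in subconfluent cells and stood at 36.4 and 24.3 in postconfluent cells, a presence pattern of 0.664% of genes, and the pattern was the same near its RefSeq starts (0.574% of genes). The whole H2A.Z.2 subconfluent list of Exp1 did hold 3 weak intervals there, of 227 to 330 bp. A predicted protein-coding gene, LOC124903317 (chr14:53954182-53962356), overlaps part of this stretch, so intervals there cannot be assigned to BMP4 alone.

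**Figure D4:**
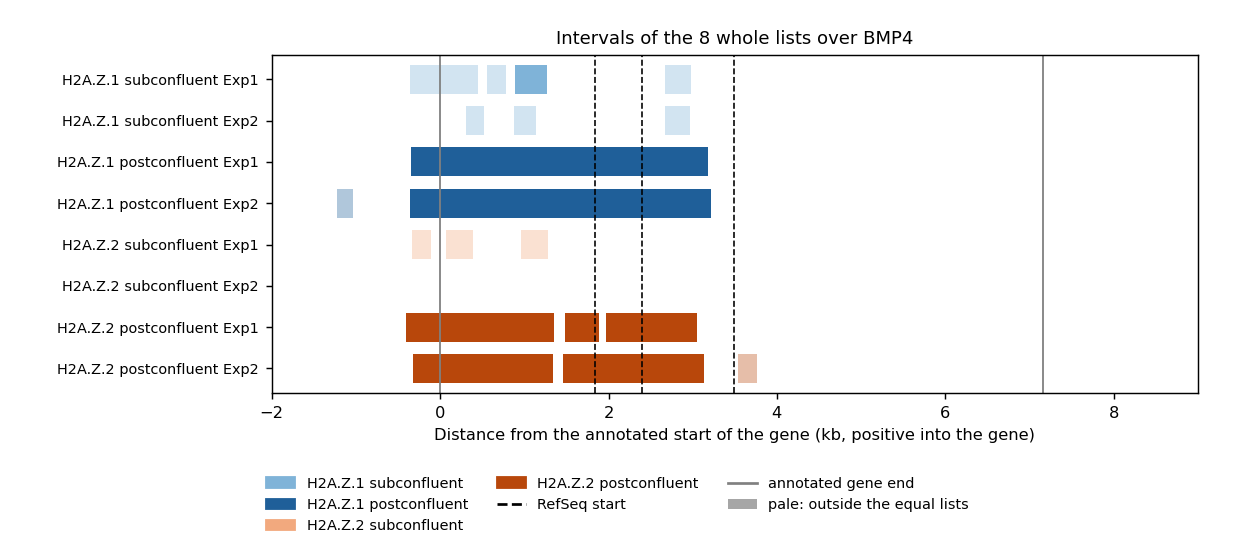
Intervals of the 8 whole lists (rows) over BMP4; the horizontal axis is the distance from the annotated start in kb, positive into the gene, grey lines are the annotated ends, dashed lines are RefSeq starts, and pale bars are intervals that are not in the equal lists. The 4 postconfluent lists cover 3232 to 3581 bp across 2 RefSeq starts, and the 4 subconfluent lists cover 0 to 1715 bp in short, mostly pale bars.

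Over the 10 genes, H2A.Z.2 was in both lists of one state and neither of the other for BMP4 (after only, 0.664% of all genes) and SMAD9 (before only, 0.429%). SMAD1 and SMAD9 had postconfluent H2A.Z.1 without H2A.Z.2 (0.499%). No gene had H2A.Z.1 in both lists of one state and neither of the other (0.509% of all genes after only, 0.594% before only). This rested on single lists: without subconfluent Exp1, SMAD1 and BMP4 had it after confluence only, and without postconfluent Exp2, SMAD3 had it before confluence only. None had both isoforms in all 4 lists of one state and none of the other (0.105% after, 0.0848% before). No gene separated the isoforms in subconfluent cells (0.649% of genes for H2A.Z.1 only, 0.17% for H2A.Z.2 only), and none had postconfluent H2A.Z.2 without H2A.Z.1 (0.14%). Among the 4 genes present in all 8 lists, none had percentiles that did not overlap between the states over both isoforms (2.77% of genes above and 2.62% below after confluence). None of the 4 separated the isoforms (0.943% with H2A.Z.2 above and 1.17% below). With shares this small, a count of 0 among 10 or 4 genes is no trait of these genes. For no gene of the 4 did both postconfluent H2A.Z.1 percentiles lie above both subconfluent ones (17.1% of genes), or both postconfluent H2A.Z.2 percentiles below (15.9%).

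By mean percentile near an end over the 8 lists, an absent interval counting as 0, SMAD6 (90.9) was followed by BMP2 (63.4), SMAD2 (51.7), SMAD9 (41.2), SMAD4 (35.0), SMAD5 (34.8), BMP4 (23.5), SMAD1 (21.9), SMAD3 (15.6) and SMAD7 (0). The gaps from SMAD6 to BMP2 and from SMAD3 to SMAD7 exceeded the SDs of the genes on either side. Every other gap between neighbours in this order was smaller than the larger of their SDs over lists. Near RefSeq starts SMAD1 (72.2 ± 6.96, SD, n = 8) and SMAD9 (68.3 ± 10.7) moved up to the places behind SMAD6. Genes present in all 8 lists had a median mean percentile of 76.9 (quartiles 63.7 and 86.9). SMAD5, SMAD2 and BMP2 were below that median, with 2.26%, 10.9% and 24.4% of genes below them.

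The profiles over lists most like those of SMAD9 and BMP4 were sought among all protein-coding genes by the mean absolute difference of the 8 percentiles. For SMAD9 they were those of N4BP3 (9.11 points) and DBH (11.5). For BMP4 they were those of AMBP (5.96 points) and of ARHGAP11A and ARHGAP11A-SCG5 (6.16 each), which share an end. N4BP3, like SMAD9, had no interval in either H2A.Z.2 postconfluent list.

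The other genes of the pathway were taken from a list of 92, of which 91 were in the annotation. An interval stood near an end in all 8 equal lists for 48 of them (52.7%), in some lists for 20 and in none for 23, against 54.5% in all 8 among all protein-coding genes. By role, 8 of 12 receptors were present in all 8 lists, among them BMPR1A, BMPR2, ACVR1 and TGFBR1, and BMPR1B was present in none, though in 6 whole lists. Of the intracellular regulators 8 of 12 were present in all 8, among them SMURF1 and SMURF2, the ubiquitin ligases that act on SMADs. Of the other BMP and GDF ligands 7 of 15 were, and 6 were in none, among them BMP3 and BMP5. Of the secreted antagonists with the pseudoreceptor BAMBI 7 of 15 were, including CHRD, FST and BAMBI, whereas NOG and GREM1, which also trap BMPs, were in none of the equal lists.

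Among these 91 genes, 4 had an isoform in both lists of one state and in neither of the other, 1 gene for each of the 4 patterns that 0.509%, 0.594%, 0.664% and 0.429% of all genes had. For H2A.Z.1, LEFTY1, an inhibitor of nodal signals, was listed only after confluence (11.7 and 39.7) and the co-receptor RGMA only before it (51.2 and 38.3). For H2A.Z.2, the type I receptor ACVRL1 was listed only after (3.61 and 2.44) and HAMP, the iron hormone gene that BMP signals induce in liver, only before (0.369 and 8.05). The intervals of ACVRL1 and HAMP were thus among the weakest of their lists. HAMP alone of the 4 kept its pattern in the whole lists.

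Percentiles separated the states over both isoforms for 4 of the 48 pathway genes present in all 8 lists. BMPR1A, a type I receptor for BMP2 and BMP4, stood at 66.3 to 81.1 in the 4 subconfluent and at 87.0 to 96.3 in the 4 postconfluent lists. INHBA, which encodes an activin subunit, stood at 70.8 to 79.2 before and at 84.5 to 95.1 after confluence. ID1, a classical target of BMP signals, stood at 35.6 to 46.6 before and at 48.9 to 74.6 after. The ligand gene BMP6 went the other way, from 33.3 to 73.5 before to 11.6 to 32.9 after. These 4 are set against 2.77% of all genes above and 2.62% below after confluence, and no test of the list was made. In the whole lists the separation held for INHBA and was absent for BMPR1A, ID1 and BMP6. MSX1 and MSX2, targets of the pathway, did not have it in the equal lists but were higher after confluence in the whole lists. There 2.78% of 11601 genes were higher in this way.

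**Figure D5:**
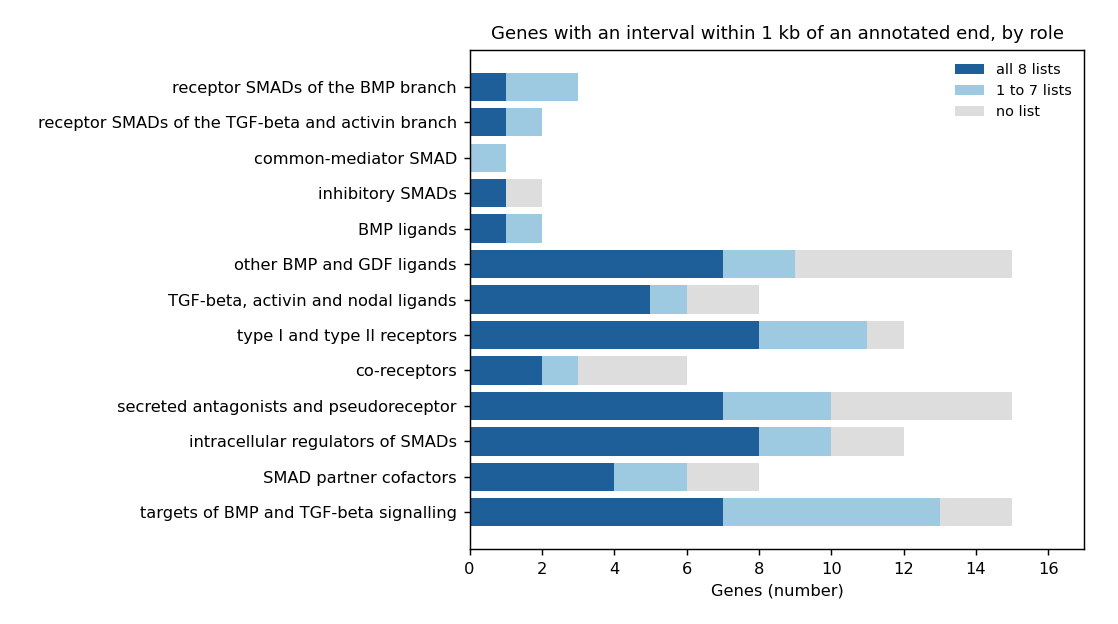
Number of genes (horizontal axis) of each role with an interval within 1 kb of an annotated end in all 8 equal lists, in 1 to 7 lists or in no list; the upper 5 bars hold the 10 SMAD and BMP ligand genes and the lower 8 bars the 91 other pathway genes. Receptors and intracellular regulators have 8 of 12 genes each in all 8 lists.

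The labelled cell type was set against marker genes. Of the intestinal epithelial genes reported here, CDH1, CDX1, CDX2 and HNF4A had an interval near an end in all 8 lists. A further 6 (EPCAM, KRT8, KRT18, KRT19, VIL1 and GPA33) had one in some lists, and KRT20 had one in none. Of 12 fibroblast and mesenchymal genes, COL1A1 and ACTA2 had one in all 8, and 4 (LUM, PDGFRA, PDGFRB and FOXF1) had one in some. COL1A2, COL3A1, DCN, THY1, TWIST1 and FOXL1 had one in none of the equal lists. Among all protein-coding genes the shares were 54.5% in all 8 and 33.1% in none. Presence of H2A.Z is not a measure of expression, and the part of other cells in the values for BMP4 and BMP2, which mesenchymal cells also express, was not tested.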

How the data were processed

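Peak lists of 8 Flag ChIP-seq samples were used, 1 per sample, so replicates were not pooled. The other 9 of 17 samples (8 of total H2A.Z and 1 input, from subconfluent cells with tagged H2A.Z.1) are not analysed here. The submitters' processing notes name hg38, BWA and deepTools. The peak caller, its control and the use of the spike-in chromatin were among the steps not given in the sources used here. In each deposited list the score is the −log10 q-value times 10, without decimals. The enrichment column of the authors is a ratio (fold). The deposited −log10 p-values and −log10 q-values are on a −log10 scale, and the last deposited column is the distance of the summit from the interval's start in bp. These are the authors' values and were used only to rank or filter intervals within a list.

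Chromosomes 1 to 22, X and Y were kept, intervals were ranked by −log10 p and the first 30603 kept (weakest −log10 p 5.19 to 16.8). Percentiles are ranks by fold. A gene was present where at least 1 bp of an interval fell within 1 kb of an annotated end. Body intervals lay between these end windows. The measure around RefSeq starts was added after seeing the data. Analyses used Python 3.11.15, numpy 2.4.6 and pandas 2.3.3, and the overlap code was tested on simulated data. The 10 genes, the pathway and marker lists and the alternatives were chosen with earlier results of these data known. All 10 genes are named. Of the pathway list those are named that were present in both lists of 1 state and neither of the other within an isoform, or whose percentiles did not overlap between states. Examples named beside counts by role were chosen after their values were seen. For SMAD9 and BMP4 the 3 most alike genes are named, except that 1 of these and 1 epithelial marker are not reported here. No test was made. Alternatives were whole lists, shorter lists, lists of equal covered length, a −log10 q of at least 10, other windows, the summit, ranking by −log10 p and leaving out each list. Read depth is unknown, so no interval or detection limit is given.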

Additional observations from a re-analysis of the deposited data

Results flagged for a closer look

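For SMAD5 the H2A.Z isoforms moved in opposite directions after confluence in each experiment. The H2A.Z.1 percentile within 1 kb of the start changed by -20.2 points in Exp1 and by -40.6 points in Exp2 (postconfluent minus subconfluent), and the H2A.Z.2 percentile by 20.2 and 1.41 points. Every H2A.Z.1 difference was negative and every H2A.Z.2 difference positive, but the last of them is small. In the whole lists the directions were the same and the sizes were not: H2A.Z.1 stood at 60.2 and 75.3 before and at 55.3 and 57.3 after confluence, and H2A.Z.2 at 63.6 and 39.5 before and at 63.9 and 64.8 after. There the small H2A.Z.2 difference was that of Exp1, and the mean difference between the isoforms (H2A.Z.2 minus H2A.Z.1) was -4.11 points, against 14.3 in the equal lists. The lncRNA gene SMAD5-AS1 spans this start, so the values cannot be assigned to SMAD5 alone. The difference between the isoforms was not tested, and in Exp1 isoform and name prefix cannot be told apart.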

How the results depend on the processing

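No paired analysis was possible because the results come from no test that a block could enter, and differences within an experiment are given as values only. In the order all 8 lists, H2A.Z.1 by state, H2A.Z.2 by state, subconfluent by isoform, postconfluent by isoform, percentiles by state and percentiles by isoform, the counts of genes were 4, 0, 2, 0, 2, 0 and 0. With whole lists, H2A.Z.2 by state was 1 (SMAD9), postconfluent by isoform 1 (SMAD9) and percentiles by isoform 1 (SMAD6). With lists of 15301 intervals, 1 gene (SMAD6) was in all 8, H2A.Z.1 by state was 1 (BMP4), and H2A.Z.2 by state and postconfluent by isoform were 0. With lists of equal covered length (14209 to 30603 intervals), 2 genes (SMAD6 and BMP2) were in all 8, H2A.Z.1 by state was 1 (BMP4), and postconfluent by isoform was again 2 but with SMAD5 and SMAD2 in place of SMAD1 and SMAD9. With a −log10 q of at least 10, 2 genes (SMAD6 and BMP2) were in all 8. With a window of 500 bp, H2A.Z.1 by state was 1 and H2A.Z.2 by state 1 (both BMP4), subconfluent by isoform 1 (SMAD2) and postconfluent by isoform 0. With a window of 2 kb, 7 genes were in all 8, H2A.Z.2 by state was 1 (BMP4), postconfluent by isoform 0 and percentiles by state 1 (SMAD1). With the summit in the window, H2A.Z.2 by state and postconfluent by isoform were 0. With RefSeq starts, H2A.Z.2 by state was 1 (BMP4), postconfluent by isoform 0 and percentiles by state 1 (SMAD1). Ranking by −log10 p moved none of the 7 counts by more than 1.5 times. Leaving out 1 list at a time gave 4 to 5 genes in all lists, 0 to 2 for H2A.Z.1 by state, 2 to 4 for H2A.Z.2 by state, 0 to 1 for subconfluent by isoform, 2 for postconfluent by isoform, 0 to 1 for percentiles by state and 0 for percentiles by isoform. H2A.Z.1 by state was 2 (SMAD1 and BMP4) without H2A.Z.1 subconfluent Exp1 and 1 (SMAD3) without H2A.Z.1 postconfluent Exp2. H2A.Z.2 by state was 4 (SMAD1, SMAD9, SMAD4 and BMP4) without H2A.Z.2 subconfluent Exp1. Subconfluent by isoform was 1 without H2A.Z.1 subconfluent Exp2 (BMP4) or H2A.Z.2 subconfluent Exp1 (SMAD4), and percentiles by state was 1 (SMAD4) without H2A.Z.2 subconfluent Exp2. The SMAD9 call thus held in the whole lists and was lost with 15301 intervals, with windows of 500 bp or 2 kb, with the summit in the window and at its RefSeq start, and the absence of SMAD7 was lost with 2 kb. Of 144 mean differences between the states (9 genes, without SMAD7, whose main difference is 0), 126 kept their sign and 130 stayed within 1 SD of the main value. Of 144 between the isoforms, 125 kept their sign and 128 stayed within 1 SD. All settings reuse the same 8 lists, so a kept sign is no replication, and an absent interval counts as 0. The difference between the states kept its sign in 16 of 16 settings at SMAD2, SMAD6, BMP2 and BMP4. It was 18.0 points at SMAD2 (SD within groups 13.0), -1.30 at SMAD6 (3.19), 9.97 at BMP2 (24.9) and 32.5 at BMP4 (15.0). For H2A.Z.1 the experiments moved in opposite directions at SMAD2 (-15.3 and 26.4) and BMP2 (-36.1 and 52.7). At BMP4 the difference ranged from 8.02 to 50.7, and only 1 of the 4 subconfluent equal lists held an interval near an end.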
